A study of Mus musculus with 4 samples.

Results

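The expression of 35 genes of glycolysis and of the response to low oxygen was measured in mouse embryonic stem cell (ESC) lines with and without Dppa2 (ECAT15-2), a chromatin-associated protein made in pluripotent cells and germ cells. The genes were chosen by symbol, and all 35 were found among the array's 41174 gene probes through the RefSeq accession that each probe carries. They had 57 probes in all. All 35 had a probe well above background on all 4 arrays, so none was lost to the filter on dim probes, and they are 35 of the 21639 genes and transcripts tested.

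A total of 4 ESC lines were compared, with 1 Agilent 4 x 44K one-colour array per line. The 2 wild-type lines (WT 1 and WT 2) were 15-1+/+ and 15-2+/+. The 2 knockout lines (KO 1 and KO 2) were 15-2-/- and also carried the conditional targeted allele of ECAT15-1, which is Dppa4, on both copies (15-1CT/CT), so WT and KO differ at both loci. WT 1 and KO 1 came from blastocysts of mother 1046, and WT 2 and KO 2 from blastocysts of mother 875, in crosses of double heterozygous animals. The mice were a mixture of 129Sv, C57/BL6 and a Cre or FLPe transgenic strain whose background was unknown. Each line had spent 3 days on gelatin-coated plates, in medium with 15% FCS and LIF. The labels give no oxygen level and no treatment with low oxygen.

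On each array 68.4% to 70.3% of the gene probes were well above background, with 0 saturated spots. Dppa2 had a log2 signal of 12.09 and 12.03 in the WT lines and 7.05 and 7.12 in the KO lines. The position of its probe relative to the deletion is not stated in the labels. Dppa4 had 13.37 and 13.54 in the WT lines and 13.95 and 14.065 in the KO lines (log2 difference 0.55, limma adjusted p = 0.154). Of 10 ESC markers, 8 were on the array with a symbol, and all 8 were above background in every line. Sums of a list are given as log2 of the summed signal. For the ESC markers this was 16.35 and 16.51 in the WT lines against 17.16 and 17.77 in the KO lines. All 8 had a positive difference, with a median of 0.79. Zfp42, the brightest of them in WT 2 and KO 2 (15.10 and 16.60), overlapped between genotypes. The summed signal of 8 trophoblast markers went the other way, with 18.10 and 18.49 against 16.15 and 15.60. That sum was carried by Krt8 and Krt18, the brightest probes. Of the 8, 0 had a positive difference, the median was -1.98, and 1 (Krt8) was called lower by limma. For 7 muscle markers the summed signal was 11.98 and 11.57 against 10.44 and 9.58, with Ckm at background in every line. That gap was mostly the gap of Acta1, with 11.66 and 11.27 in the WT lines and 9.23 and 6.99 in the KO lines. The median of the 5 tested muscle genes was -0.74. Among them 1 (Des) had a positive difference, with 7.82 and 7.57 against 8.69 and 8.61. The 8 fibroblast markers summed to 13.75 in WT 1 and to 12.002, 12.39 and 12.56 in WT 2, KO 1 and KO 2. Among them 2 had a positive difference, and the median was -0.73. The 8 primitive endoderm markers summed to 10.75 and 10.98 against 11.19 and 10.54, with 1 of 8 (Dab2) called lower. Of these 8, however, 5 had a positive difference and the median was 0.86, so the sum does not stand for most of the list. The 7 primed epiblast markers summed to 16.60 and 16.62 against 16.50 and 16.15, with Cer1 at background in every line. That sum was carried by Pou3f1 and Dnmt3b, the brightest probes: 0 of 6 tested genes had a positive difference, with a median of -1.36, Fgf5 at -3.40, T at -4.47 and 1 (Sox4) called lower. The 5 neuronal markers summed to 13.25 and 13.20 against 13.64 and 12.91. That sum was carried by Tubb3 and Stmn2, the brightest probes. Of these 5, 2 had a positive difference and the median was -1.14. Stmn2 had 12.37 and 11.97 in the WT lines, 12.73 in KO 1 and 9.28 in KO 2. With the mother as a block 0 of all genes were called, so that the calls of Krt8, Dab2 and Sox4 were lost. The part of these lists in the differences given here was not tested. In such bulk RNA, fewer cells of a type and less RNA per cell cannot be told apart.

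Glycolysis splits glucose into pyruvate, and most of its steps have several isoenzymes that differ between tissues. Hif1a and Epas1 (HIF-2 alpha) encode the oxygen-regulated subunits of the hypoxia-inducible factors, which bind a short core motif near their targets, while the prolyl hydroxylases encoded by Egln1 and Egln3 mark these subunits for destruction when oxygen is present. Several glycolytic enzymes, glucose transporters and Pdk1 are textbook targets of these factors. Naive and primed pluripotent cells are known to differ in their reliance on glycolysis.

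The core of the hypoxia response element was searched as ACGTG and GCGTG, on both strands, in the 250 bases before each RefSeq gene start (GRCm38.p6). Overlapping matches were counted as 1. Of the 35 genes, 32 had a promoter in the table (Slc2a3, Epas1 and Ndrg1 did not), and 29 of these 32 (90.6%) held a match in at least 1 promoter, against 41.5% of 27025 genes. ACGTG was present in 18 of the 32 and GCGTG in 22, against 18.5% and 30.9% of all genes. The shares were not adjusted for base composition, and part of the list consists of known targets of the factors, so they are a description. The promoters below belong to Pfkfb3 and Adm, the genes furthest below their WT level among those with an unadjusted p under 0.05, and to Aldoc and Pdk1, the genes furthest above it. Where a gene had several starts, the one farthest upstream was taken. Capitals mark the matches.
Pfkfb3: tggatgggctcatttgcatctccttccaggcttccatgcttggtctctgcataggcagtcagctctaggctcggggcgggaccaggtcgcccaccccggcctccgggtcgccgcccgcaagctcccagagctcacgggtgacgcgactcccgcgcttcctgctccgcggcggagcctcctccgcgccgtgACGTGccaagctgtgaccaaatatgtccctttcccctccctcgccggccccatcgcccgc
Adm: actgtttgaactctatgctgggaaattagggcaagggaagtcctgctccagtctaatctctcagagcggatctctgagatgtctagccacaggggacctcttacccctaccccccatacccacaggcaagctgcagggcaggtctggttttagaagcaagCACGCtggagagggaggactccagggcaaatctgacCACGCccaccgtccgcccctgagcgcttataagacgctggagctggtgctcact
Aldoc: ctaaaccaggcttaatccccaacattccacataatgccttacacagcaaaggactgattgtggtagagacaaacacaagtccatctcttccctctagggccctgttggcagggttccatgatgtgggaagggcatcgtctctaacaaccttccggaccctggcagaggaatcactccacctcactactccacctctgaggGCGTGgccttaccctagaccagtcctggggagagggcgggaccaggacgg
Pdk1: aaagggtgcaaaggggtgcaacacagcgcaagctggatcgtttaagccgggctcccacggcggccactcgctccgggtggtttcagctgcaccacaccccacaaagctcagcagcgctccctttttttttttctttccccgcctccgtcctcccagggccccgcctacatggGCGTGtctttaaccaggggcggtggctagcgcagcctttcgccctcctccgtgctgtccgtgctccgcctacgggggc
In these windows, Pfkfb3 (chromosome 2, minus strand, chr2:11553930-11554179) held ACGTG 60 bases before its start. Adm (chr7:110627407-110627656, plus strand) held GCGTG on the reverse strand 90 and 54 bases before its start, Aldoc (chr11:78322823-78323072, plus strand) held GCGTG 50 bases before and Pdk1 (chr2:71872974-71873223, plus strand) 78 bases before. At other starts of these genes, Pfkfb3 held 2 matches, Aldoc 1 and Pdk1 0. Because 29 of the 32 listed genes with a promoter (90.6%) held a match, matches in these genes were likely beforehand. Nothing about the direction of a difference is read from them.

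Every difference below is KO minus WT of the log2 signal, with n = 2 lines in each group. None of the 35 genes passed the test over all genes (limma with Benjamini-Hochberg adjustment, 0 lower and 0 higher), where 1.67% of all genes tested were called lower and 0.176% higher. The smallest adjusted p among them was 0.0771, for Aldoc. At an unadjusted p under 0.05, 5 were higher (Aldoc, Pdk1, Pfkl, Pfkm and Pgk1) and 4 lower (Adm, Egln1, Egln3 and Pfkfb3), against a background of 11.2% and 12.4% of all genes. In this fit these shares are close to that background, which did not hold under every other setting given below. In 17 genes both KO lines lay above both WT lines and in 7 both lay below, where 37.7% and 24.5% of all genes did so. The median KO minus WT difference of the 35 genes was 0.24 on the log2 scale, against 0.10 over all genes tested. It was 0.093 under quantile scaling, where the median of all genes was 0.091. In the plot of every gene by line, the KO lines of most enzymes sit slightly right of the WT mean, and those of Pfkfb3 and Adm far left.

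**Figure D1:**
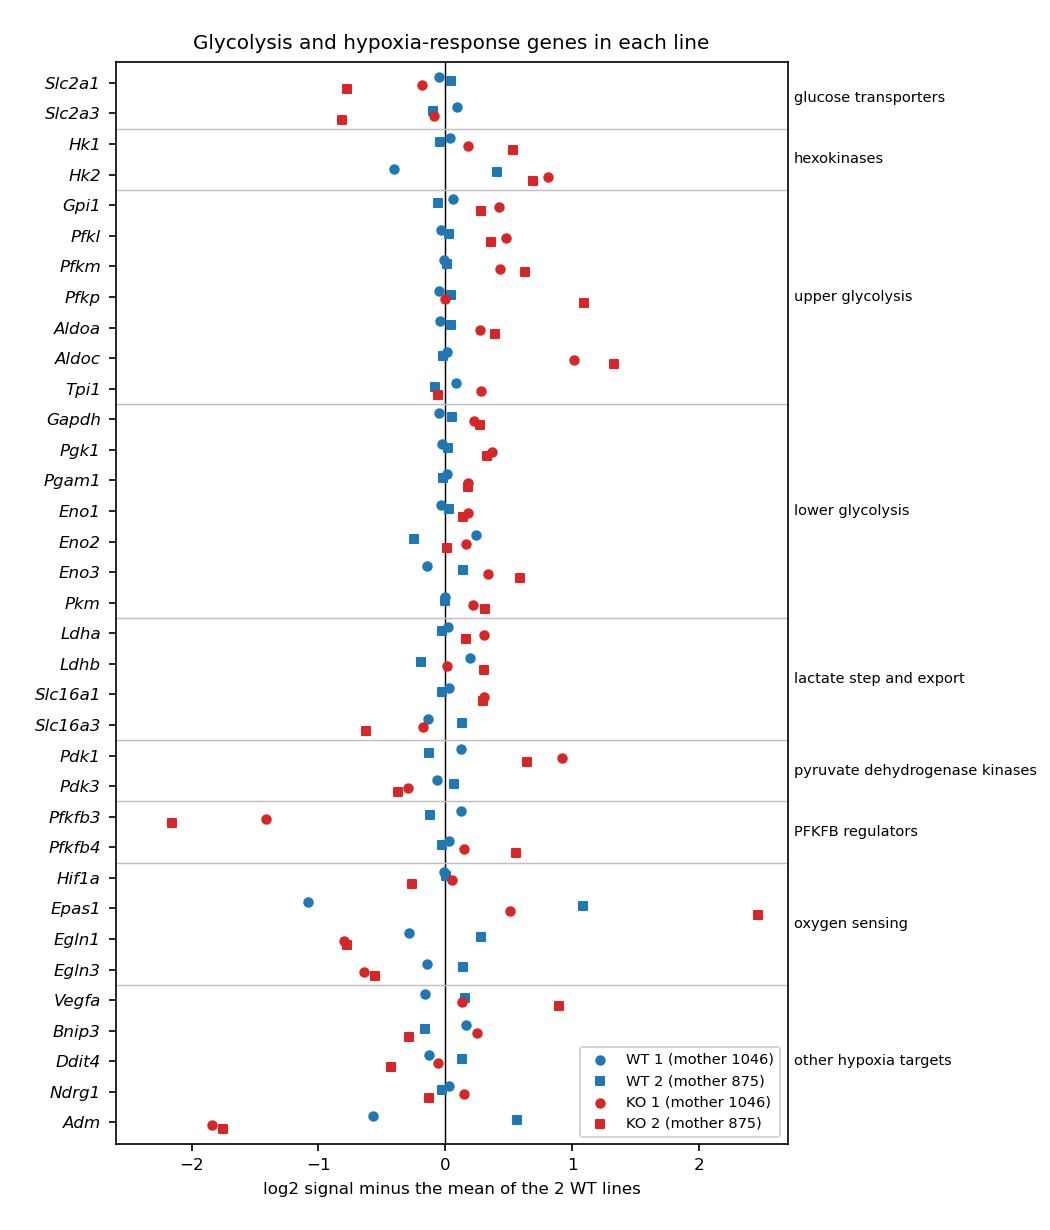
Log2 signal of each of the 35 genes in each of the 4 lines, as the distance from the mean of the WT lines (horizontal axis), grouped by role. Blue points are WT and red points KO lines, circles mother 1046 and squares mother 875. Pfkfb3 and Adm lie lowest in the KO lines, and Epas1 spreads widely within both genotypes.

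Glucose enters through the transporters GLUT1 (Slc2a1) and GLUT3 (Slc2a3). Slc2a1 had a log2 signal of 16.18 and 16.28 in the WT lines and 16.05 and 15.46 in the KO lines. Slc2a3 had 16.64 and 16.46 against 16.46 and 15.74. In both genes the gap was mostly that of KO 2, with differences of -0.83 and -0.72 between the lines of mother 875 and -0.13 and -0.18 between those of mother 1046. Over both pairs the log2 differences were -0.48 (SE 0.25, limma adjusted p = 0.324) and -0.45 (SE 0.30, limma adjusted p = 0.409). Without KO 2 they were -0.18 for Slc2a1 and -0.086 for Slc2a3.

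Hexokinases trap glucose in the cell as glucose 6-phosphate. Hk1, the widely expressed form, had 12.16 and 12.08 in the WT lines and 12.30 and 12.66 in the KO lines, a difference of 0.36 (SE 0.18, limma adjusted p = 0.308). Hk2, the inducible form, had 14.16 and 14.98 in the WT lines and 15.38 and 15.27 in the KO lines. Both KO values of Hk2 lay above both WT values, but WT 1 was 0.81 below WT 2, and the difference of 0.75 (SE 0.32, limma adjusted p = 0.263) was 1.22 between the lines of mother 1046 and 0.29 between those of mother 875. Hk1 had 5 probes above background in every line, with differences of 0.24 to 0.44.

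The 3 phosphofructokinases catalyse the committed step. Pfkl, the liver form, had 13.11 and 13.16 in the WT lines and 13.61 and 13.49 in the KO lines (log2 difference 0.42, SE 0.13, limma adjusted p = 0.187). Pfkm, the muscle form, had 12.38 and 12.41 against 12.83 and 13.02 (log2 difference 0.53, SE 0.14, limma adjusted p = 0.158). Both genes were separated by genotype in all lines. Pfkp, the platelet form, was at 10.58, 10.67 and 10.62 in WT 1, WT 2 and KO 1 and at 11.72 in KO 2 alone. Its difference of 0.54 (SE 0.42, limma adjusted p = 0.465) became -0.0051 without KO 2, and its second probe (5.26, 5.26, 5.46 and 6.28, in the same order of lines) had the same outlying line.

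The aldolases, which cut fructose 1,6-bisphosphate, gave the smallest p of the list. Aldoc, the brain isoenzyme, had a log2 signal of 10.77 in WT 1 and 10.74 in WT 2, and of 11.77 in KO 1 and 12.09 in KO 2. The groups were separated by more than their spread (WT SD 0.02, KO SD 0.23), and the log2 difference was 1.17 (SE 0.17, limma adjusted p = 0.0771), or 2.26-fold. It was 0.998 and 1.35 in the pairs of mothers 1046 and 875, and 1.01 to 1.34 over all 14 other settings, none of which brought its adjusted p under 0.05. Aldoa, the main form in most tissues, had 18.06 and 18.14 in the WT and 18.38 and 18.50 in the KO lines, which gave a difference of 0.34 (SE 0.13, limma adjusted p = 0.234).

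**Figure D2:**
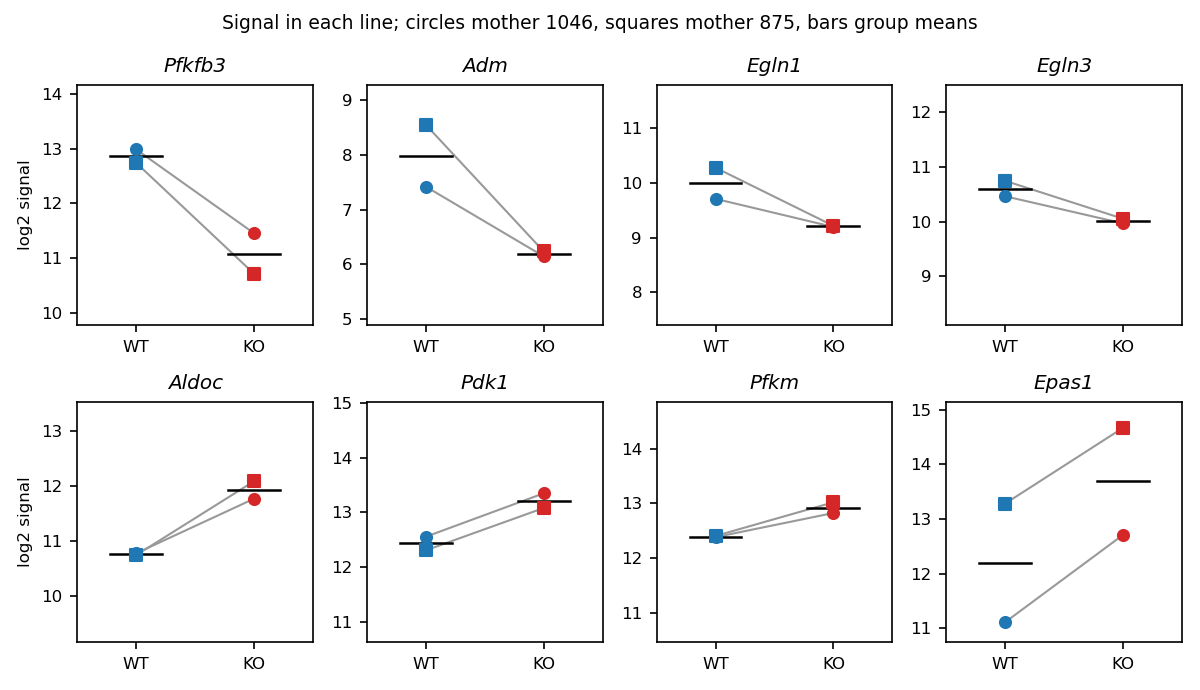
Log2 signal (vertical axis, the same span of log2 units in each panel) of 8 genes in the WT and KO lines. Circles are lines of mother 1046, squares lines of mother 875, grey lines join lines of the same mother and black bars are group means. Epas1 differs by 2.17 and 1.96 between mothers and by 1.60 and 1.39 between genotypes.

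The remaining enzymes of the pathway were all measured slightly above their WT level. Gpi1, which isomerises glucose 6-phosphate, differed by 0.35, the triosephosphate isomerase gene Tpi1 by 0.11 and Gapdh, often used as a reference gene, by 0.25. Pgk1, the first ATP-forming step, had 17.02 and 17.07 in the WT lines and 17.42 and 17.38 in the KO lines (log2 difference 0.35, SE 0.12, limma adjusted p = 0.211), and its second probe gave 0.36. Pgam1, a phosphoglycerate mutase, differed by 0.18. Among the enolases, the ubiquitous Eno1 differed by 0.16, the neuronal Eno2 by 0.088 and the muscle form Eno3 by 0.46. The pyruvate kinase gene Pkm differed by 0.27. The lactate dehydrogenase genes Ldha and Ldhb differed by 0.24 and 0.16. None passed the test, with limma adjusted p between 0.211 and 0.819 for these genes.

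Over the 18 enzymes from hexokinase to lactate dehydrogenase, 18 differences were positive and 14 had both KO lines above both WT lines, as did 37.7% of all genes tested. The median was 0.34 in log2 units, with 0.28 for mother 1046 and 0.32 for mother 875, while 59.2% of all genes tested had a positive difference. The set of 18 was formed after the values were seen. Its median depended on the scaling, being 0.19 under quantile scaling, where Tpi1, Pgam1 and Ldhb had negative differences and 15 of 18 stayed positive. Of these enzymes, Aldoc, Hk2, Pfkp and Pfkm kept a difference of at least 0.44 there.

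**Figure D3:**
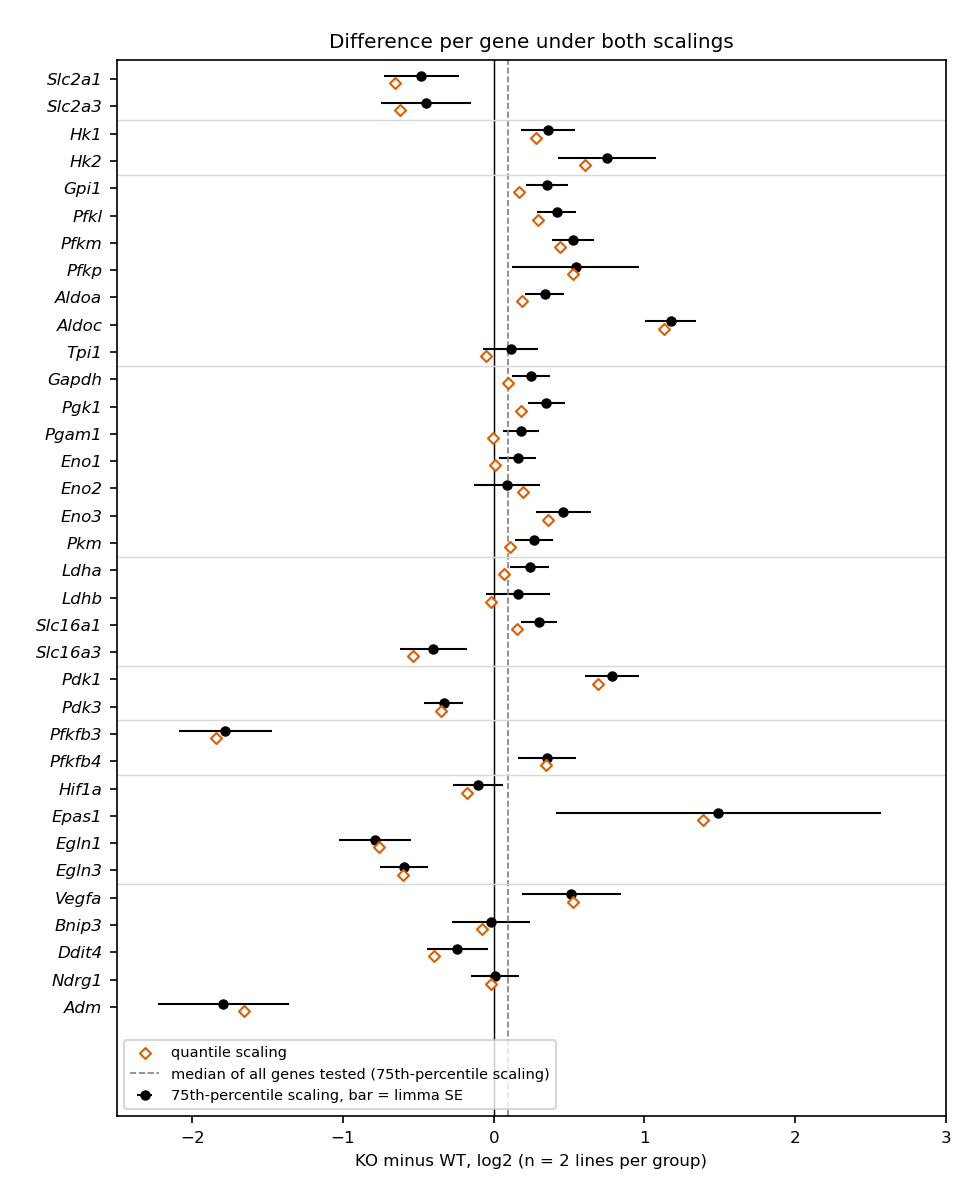
KO minus WT difference in log2 units (horizontal axis) for each of the 35 genes, 2 lines per group. Black points with bars are the values with 75th-percentile scaling and their limma standard error, and open diamonds are the values with quantile scaling. Most enzymes move left towards 0 under quantile scaling, whereas Aldoc, Pdk1, Pfkfb3, Egln1, Egln3 and Adm stay near their values.

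Lactate leaves the cell through the monocarboxylate transporters MCT1 (Slc16a1) and MCT4 (Slc16a3), the second of which is a known hypoxia target. Slc16a1 had 14.04 and 13.98 in the WT lines and 14.31 and 14.30 in the KO lines, a difference of 0.30. Slc16a3 had 14.07 and 14.33 in the WT lines and 14.02 and 13.58 in the KO lines, a difference of -0.40 that lay mostly in KO 2. Neither passed (limma adjusted p = 0.244 and 0.346).

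Pyruvate dehydrogenase kinases inhibit pyruvate dehydrogenase in the mitochondrial matrix and so limit the conversion of pyruvate to acetyl-CoA. Pdk1, a HIF target, had 12.56 and 12.31 in the WT lines and 13.35 and 13.08 in the KO lines. The groups did not overlap, and the pairs of mothers 1046 and 875 differed by 0.79 and 0.77. The log2 difference was 0.78 (SE 0.18, limma adjusted p = 0.134), and a second probe gave 0.90. Pdk3 had 10.86 and 10.998 in the WT lines against 10.64 and 10.56 in the KO lines, a difference of -0.33 (SE 0.13, limma adjusted p = 0.240). Its second probe gave -0.22.

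Pfkfb enzymes set the level of fructose 2,6-bisphosphate, the activator of phosphofructokinase. Pfkfb3, the member with the highest kinase activity, had 12.99 and 12.74 in the WT lines and 11.45 and 10.71 in the KO lines. Both KO lines were at least 2-fold below the WT line of the same mother (-1.53 and -2.03), as was Adm in the list, where 6.94% of all genes tested did so. The log2 difference was -1.78 (SE 0.31, limma adjusted p = 0.0970), a 3.43-fold lower signal. The other 2 probes of Pfkfb3 were much dimmer and gave -1.45 and -1.41. Over the 14 other settings the difference was between -2.15 and -1.41, and its adjusted p was lowest without KO 1 (limma, 0.0521), where KO 2 alone is assumed to vary like the WT lines. Pfkfb4 had 10.19 and 10.14 in the WT lines and 10.31 and 10.73 in the KO lines, a difference of 0.36 (SE 0.19, limma adjusted p = 0.338).

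Genes of one step were then compared within each array, which removes any scaling constant and asks whether the isoforms differed unequally. Levels of different probes were not compared. In 15 pairs, the exact two-sided permutation test over 2 against 2 lines cannot give a p below 0.333, which is 0.833 after adjustment over the 15 pairs, so no pair could pass. Of these pairs, 6 were separated completely by genotype, each at that smallest p of 0.333, so their number is a description from which nothing is read. The contrast was -2.14 log2 units for Pfkfb3 relative to Pfkfb4 (-1.65 and -2.62 in the pairs of mothers 1046 and 875), 1.12 for Pdk1 relative to Pdk3 (1.02 and 1.21) and 0.70 for Slc16a1 relative to Slc16a3 (0.32 and 1.08). Aldoa differed by -0.84 relative to Aldoc (-0.68 and -0.997), Eno1 by -0.30 relative to Eno3 (-0.27 and -0.34), and Egln1 by -0.19 relative to Egln3 (-0.017 and -0.37). Hif1a differed by -1.59 relative to Epas1, with -1.53 and -1.65 in the pairs, although the genotypes overlapped, and Eno2 by -0.37 relative to Eno3, also with overlap. Of the rest, Hk1 against Hk2, Pfkl against Pfkm, Pfkl against Pfkp, Pfkm against Pfkp, Eno1 against Eno2, Ldha against Ldhb and Slc2a1 against Slc2a3 had opposite signs in the pairs. With normexp background correction 0 of the 15 mean contrasts changed sign.

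**Figure D4:**
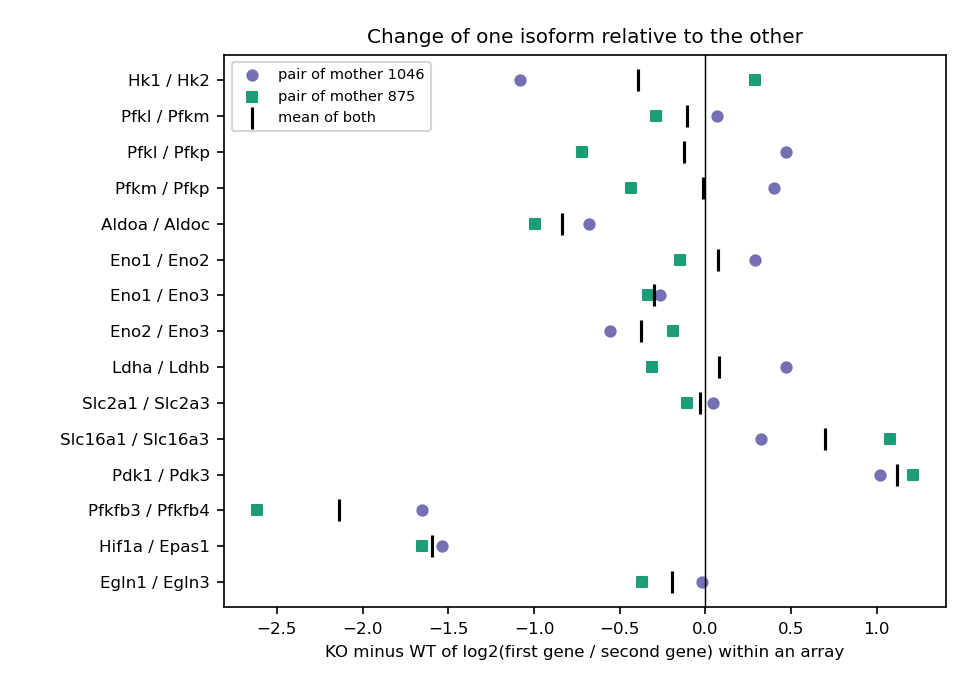
KO minus WT of the within-array log2 ratio of paired genes (horizontal axis), for 15 pairs of isoforms or paralogues. Circles are the pair of lines of mother 1046, squares that of mother 875 and bars the mean of both. Pfkfb3/Pfkfb4 and Hif1a/Epas1 lie farthest from 0 in both pairs of lines, and Hk1/Hk2 lies on opposite sides of 0.

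Among the oxygen sensors, Hif1a had 12.45 and 12.47 in the WT lines and 12.52 and 12.20 in the KO lines, a difference of -0.10 (SE 0.17, limma adjusted p = 0.715). Epas1 had 11.12 in WT 1, 13.28 in WT 2, 12.71 in KO 1 and 14.67 in KO 2. Its lines of mother 875 were above those of mother 1046 by 2.17 in WT and 1.96 in KO lines, so the genotypes overlapped. It was the 1 gene of the list with a gap between mothers of at least 2-fold the same way in both genotypes, where 1.16% of all genes tested had one. Within the pairs KO exceeded WT by 1.60 and 1.39, and Epas1 was the 1 gene of the list at least 2-fold higher in both pairs, as were 1.56% of all genes tested. The log2 difference was therefore 1.49 in both models, with SE 1.08 without the mother (limma adjusted p = 0.440) and SE 0.14 with the mother as a block (limma adjusted p = 0.106). Leaving out 1 line moved it between 0.41 (without WT 1) and 2.58 (without WT 2), with 2.47 without KO 1 and 0.51 without KO 2. Its dimmer second probe, above background on 3 arrays, followed the same order of lines (3.40, 4.26, 3.93 and 5.34 in WT 1, WT 2, KO 1 and KO 2).

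Of the 3 HIF prolyl hydroxylase genes, Egln1 and Egln3 had lower signal in the KO lines, while Egln2, from the further lists, had 12.20 and 12.22 in the WT and 12.27 and 12.24 in the KO lines (log2 difference 0.046, limma adjusted p = 0.827). Egln1 had 9.71 and 10.28 in the WT lines and 9.20 and 9.22 in the KO lines (log2 difference -0.79, SE 0.24, limma adjusted p = 0.185), with -0.69 for its second probe. Egln3, itself a HIF target, had 10.47 and 10.75 in the WT lines and 9.97 and 10.06 in the KO lines (log2 difference -0.59, SE 0.16, limma adjusted p = 0.163). The KO lines lay close together in Egln1 and in Egln3, and neither of these overlapped between genotypes.

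The other hypoxia targets had no common direction. Adm, the gene of the vasodilator peptide adrenomedullin, had 7.42 and 8.55 in the WT lines and 6.15 and 6.24 in the KO lines. Both KO lines lay below both WT lines although the WT lines themselves were 1.13 apart, and the difference was -1.79 (SE 0.43, limma adjusted p = 0.143), a 3.47-fold lower signal. It went from -1.27 to -2.32 between the pairs and was -1.15 under normexp correction with quantiles or -2.36 without WT 1 as the outermost values. Vegfa, the angiogenic growth factor gene, had 9.46 and 9.77 in the WT lines and 9.75 and 10.52 in the KO lines, a difference of 0.51 with overlapping groups. The mitophagy receptor gene Bnip3 differed by -0.019, the mTORC1 inhibitor gene Ddit4 by -0.24 and Ndrg1 by 0.0090, each with opposite signs in the pairs. Limma adjusted p was between 0.391 and 0.977 for these 4 genes.

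Where a gene had several probes above background in every line, they had the same sign in 13 of 13 genes, with a spread of at most 0.37 in log2 units. In 29 of the 35 genes the sign was the same in both pairs of lines, with 21 higher and 8 lower, where 46.7% and 29.3% of all genes tested did so, and in 6 it was not (Eno2, Ldhb, Hif1a, Bnip3, Ddit4 and Ndrg1).

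Further genes of the pathway were read from 6 lists. Of 80 tested genes, none passed in either direction (limma, 0 lower and 0 higher over all genes). In the list of other HIF targets, 31 of 32 genes were tested, where 8 had a lower and 4 a higher signal with unadjusted p under 0.05, against 12.4% and 11.2% of all genes, and the median was -0.099. Of the 31 differences, 14 were positive. The 4 higher genes were Gys1 (0.88, limma adjusted p = 0.0963), Kdm3a (0.75), Tfrc (0.58) and Plod1 (0.50). The 4 with the smallest p were all lower. These were the clock-linked repressor gene Bhlhe40 (11.39 and 11.58 in WT, 10.28 and 10.19 in KO lines, limma adjusted p = 0.0548) and Siah2, which encodes a ubiquitin ligase acting on prolyl hydroxylases (8.07 and 8.38 against 6.78 and 6.72, limma adjusted p = 0.0565). Cited2, a competitor of HIF for its coactivators, differed by -0.78 (limma adjusted p = 0.0859) and the annexin gene Anxa2 by -1.17 (limma adjusted p = 0.0900). Bhlhe40 passed under 3 other settings, normexp with the 75th percentile, normexp with quantiles, and the intensity trend with robust prior. Cited2 passed under the last 2 of these.

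The 2 points farthest left in that list, picked after their values were seen, had unequal KO lines. The carbonic anhydrase gene Car12 had 7.21 and 7.18 in the WT lines and 1.17 and 4.54 in the KO lines, with 1 of 2 KO arrays above background. Ankrd37 had 11.20 and 11.39 in the WT lines, 9.37 in KO 1 and 5.69 in KO 2. Both were called lower without KO 1, where the WT lines alone give the spread and the gap between the KO lines no longer counts.

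In the list of other oxygen sensing genes, 11 of 12 were tested, and the median difference was 0.094. The HIF partner gene Arnt had 10.81 and 10.59 in the WT and 11.12 and 11.19 in the KO lines (log2 difference 0.46, limma adjusted p = 0.192). Its paralogue Arnt2 had 6.04 and 6.18 against 2.63 and 4.22 (log2 difference -2.68, limma adjusted p = 0.131), with 1 of 2 KO arrays above background. The ubiquitin ligase subunit genes Elob and Rbx1 differed by 0.20 and 0.19.

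Isoforms known from single tissues or germ cells were tested for 14 of 18 genes, with a median of -0.12. The pyruvate and lactate transporter gene Slc16a7 was above background only in the WT lines and did not pass (limma adjusted p = 0.111). It had 4.64 and 5.16 in the WT lines and 3.29 and 2.37 in the KO lines. With KO signals raised to at least the lowest signal above background on their array, the gap was 3.03-fold. That is an estimate near the floor and not a bound. Gapdhs, the sperm isoform, had 7.36 and 4.96 in the WT lines and 3.90 and 3.04 in the KO lines, with 1 of 2 KO arrays above background. Ldhc, the testis lactate dehydrogenase, went the other way, with 7.56 and 6.18 against 8.32 and 8.62. Eno4, a sperm enolase, differed by -0.51. Limma adjusted p was 0.198 to 0.213 for these 3 genes.

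Of 9 tested genes for the entry of pyruvate into mitochondria, the median difference was 0.25. The carrier gene Mpc1 had 11.72 and 11.45 in the WT lines and 12.50 in both KO lines (log2 difference 0.92, SE 0.15, limma adjusted p = 0.0940). Pdhx, a structural subunit of pyruvate dehydrogenase, differed by 0.46, the pyruvate carboxylase gene Pcx by 0.34 and Pdhb by 0.43. In the pentose phosphate pathway 6 of 7 genes were tested, with a median of 0.23, led by the entry enzyme gene G6pdx with 0.35 (limma adjusted p = 0.212). Taldo1 differed by 0.31, Tkt by 0.25 and Pgd by 0.21.

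Of 9 tested gluconeogenic and bypass genes the median was 0.38. The galactose mutarotase gene Galm differed by 0.83 (limma adjusted p = 0.100) and Tigar, which lowers fructose 2,6-bisphosphate, by 0.70 (limma adjusted p = 0.180). G6pc differed by 0.30, with log2 signals of 3.92 to 4.31, near the lowest signals well above background on the arrays (3.24 to 3.58). Fbp1, which reverses the phosphofructokinase step, had 9.17 and 8.76 in the WT lines and 8.21 and 8.07 in the KO lines (log2 difference -0.82, SE 0.20, limma adjusted p = 0.143).

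**Figure D5:**
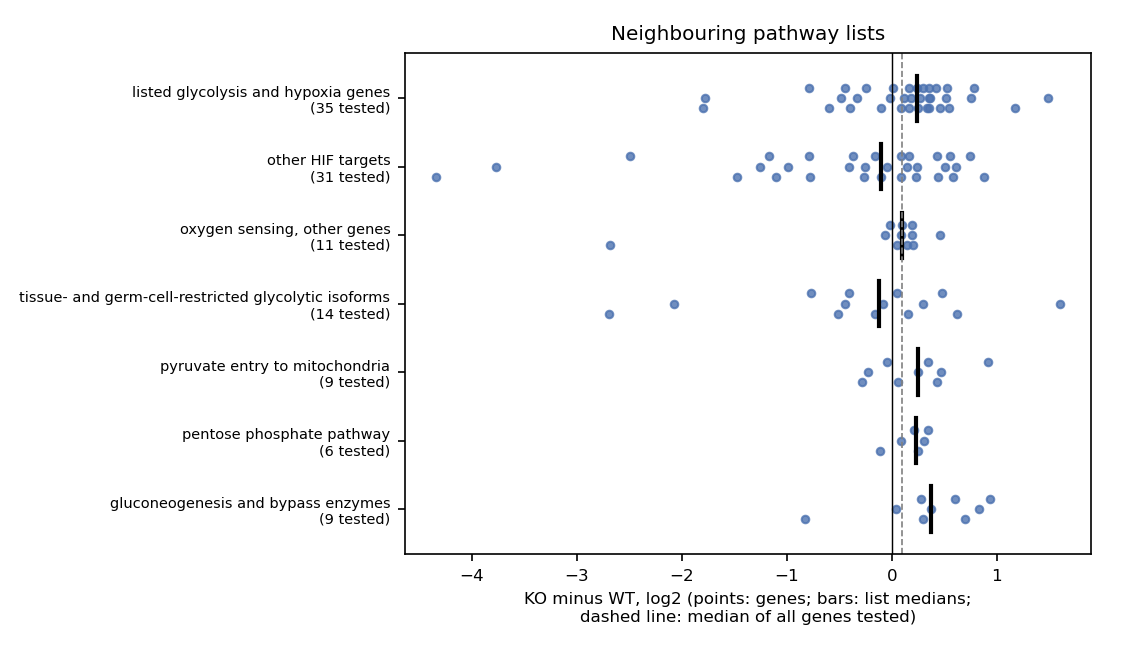
KO minus WT difference in log2 units (horizontal axis) for the 35 listed genes and for the tested genes of 6 further lists. Points are genes, thick bars list medians, the solid line is 0 and the dashed line the median of all genes tested (0.10). The list of other HIF targets spreads farthest to the left, the medians of the restricted isoforms and of the other HIF targets lie left of 0, and those of the last 3 lists lie right of the dashed line.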

How the data were processed

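One-colour arrays of 4 ESC lines were used. The authors deposited the intensity of each spot made by Feature Extraction (Agilent, version 10.7.3.1) per the file headers. Its 75th percentile differed between arrays (log2 of 10.28 to 10.51). The log2 values of the deposited series table correlated with the processed signal (0.9999 or more) and shared their quantiles to within 0.000727. The series' design text names GeneSpring for the analysis, without its settings.

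Control and outlier-flagged spots were left out, log2 processed signals were averaged per probe, and each array was set to its 75th percentile, re-centred on the mean percentile. Probes were named by accession through RefSeq (26582 with 1 symbol, 14359 with none). The brightest probe well above background on both arrays of a group stood for a gene. The genotype comparison used limma (version 3.58.1, R 4.3.3), with Benjamini-Hochberg adjustment over 21639 genes at 0.05. The labels tie replicate numbers to a shared mother, so a second fit held the mother as block. The mothers' differences in WT and in KO lines correlated at 0.19 across genes. Normexp (offset 50) used the median spot signal in place of the planned mean signal, which was not used here. In all, 14 other settings were tried. In simulated data, 0% of genes with a true log2 change of 1, 6.42% of those with 2 and 71.1% of those with 4 were called. The small number of arrays limits the precision. Only a small share of the genes was changed in each simulated draw, while 5104 of the 21639 genes had an unadjusted p under 0.05 here (limma). The share called after adjustment depends on how many genes change, so these rates need not hold for the real data. The genes, lists and named-gene rule (every member, line by line for an unadjusted p under 0.05, a log2 difference of at least 0.8 or a partner in an isoform pair with such a gene, and the 4 smallest p of each further list) were chosen with earlier results of these data known. Per the labels, each line was derived separately.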

Additional observations from a re-analysis of the deposited data

How the results depend on the processing

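Over 14 other settings, 0 of the 35 genes were called lower or higher in any (limma). In those that kept all 4 lines, 7 to 17 had an unadjusted p under 0.05. The most were with the intensity trend and robust prior, 4 lower and 13 higher, against 2721 and 2937 of all 21639 genes tested. With normexp and the 75th percentile, 5 were lower and 9 higher, against 2554 and 2802. Median centring gave 2 lower and 12 higher, against 2100 and 4778. Quantile scaling gave 4 lower and 3 higher, against 2472 and 2929. Over all genes, 361 lower and 38 higher became 0 and 0 with the mother as a replicate block, and the block changed no call among the 35 genes. They also became 0 and 0 with genes above background on all 4 arrays (2183 lower and 2448 higher unadjusted, against 2734 and 2280 with the block), and 0 to 676 lower and 0 to 64 higher when single lines were left out. Higher genes numbered 58 under median centring, 66 under normexp with the 75th percentile, 9 with no filter on dim probes and 81 with an intensity trend and robust prior. The median of the 35 genes was 0.093 under quantile scaling, 0.41 under median centring, 0.085 under normexp with quantiles, 0.089 in the deposited values and 0.14 with the median of all genes subtracted. That of the 18 enzymes was 0.19, 0.51, 0.18 and 0.19 under the first 4 of these, and 0.28 to 0.33 without single lines. The median of all genes was 0.091, 0.26, 0.064 and 0.089 under the same 4. Median centring moved all genes alike: the 35 genes and the enzymes stayed 0.14 and 0.25 above the median of all genes, as in the main fit. In the further lists, 1 gene was called lower under normexp with the 75th percentile, 2 under normexp with quantiles, 2 with the trend and robust prior, and 0 to 2 without single lines.

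Signs turned in 23 of 490 comparisons, in 9 genes. Pfkp turned without KO 2. Under quantile scaling, normexp with quantiles and the deposited values, Tpi1 was -0.051, -0.042 and -0.050, Ldhb -0.017, -0.016 and -0.017, and Ndrg1 -0.019, -0.0016 and -0.019. Pgam1 was -0.0049 under quantile scaling and -0.0017 in the deposited values, and Eno1 -0.0088 under normexp with quantiles. Under median centring Hif1a was 0.063 and Bnip3 0.15. Leaving out single lines gave -0.0051 to 1.09 for Pfkp, -0.054 to 0.28 for Tpi1, -0.15 to 0.33 for Eno2, -0.032 to 0.35 for Ldhb, -0.26 to 0.054 for Hif1a, -0.29 to 0.25 for Bnip3 and -0.13 to 0.15 for Ndrg1. The causes were not tested. The alternatives for the 18 enzymes and the further lists, and the subtraction of the median, were chosen after seeing the data.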

Other observations

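Epas1 was not alone in its gap between the mothers. Of all genes tested, 1.16% had a gap of at least 2-fold the same way in both genotypes. Zfp42, which encodes the pluripotency marker Rex1, had a log2 signal of 13.39 in WT 1, 15.10 in WT 2, 13.97 in KO 1 and 16.60 in KO 2, so that both lines of mother 875 lay above both lines of mother 1046. The gene was picked from the ESC markers after its values were seen. Genes of other lists had such gaps in either direction. The lines of mother 875 were higher for Fbp2 (1.57 in WT and 1.46 in KO lines). They were lower for several markers, among them Gata6 (-1.22 and -2.05), Pdgfrb (-2.71 and -1.67) and T (-1.12 and -3.00). A link between Epas1 and any of these genes was not tested. The other ESC markers on the array did not separate by mother in both genotypes by as much: Sox2 had 13.40 and 13.36 in the WT lines and 14.14 and 14.32 in the KO lines, and Klf4 had 13.97 and 13.11 against 15.58 and 15.35.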
